A study of Mus musculus with 31 samples.

Results

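Broad H3K27ac domains were defined in mouse lung adenocarcinomas that retained Nkx2-1 as H3K27ac islands on chromosomes 1 to 19 that were at least 20000 bp wide. They were chosen by their width in the positive-tumor H3K27ac list, with no condition on any other mark or factor. An island is a run of enriched windows called by the authors. Of 71961 islands on these chromosomes (73539 on all), 1275 met this width, which was 1.77% of the islands, 13.1% of their 287 Mb and 20.6% of their reads. The narrower islands set beside them were the 15009 of 5000 to under 20000 bp, with 45.2% of the bases and 50.3% of the reads.

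Acetylation of histone H3 at lysine 27 is deposited at active promoters and enhancers. Long unbroken runs of it often span clusters of enhancers, and such runs are known to lie near genes that mark the identity of a cell type. Nkx2-1 is a homeodomain factor of lung epithelium. Foxa1 and Foxa2 are forkhead factors of lung and gut epithelium that can bind closed chromatin, and H3K4me3, H3K4me1 and H3K27me3 mark promoters, enhancers and Polycomb-silenced chromatin.

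The study profiled primary tumors by chromatin immunoprecipitation and sequencing in mice of mixed 129/B6 strain, aged 4 to 7 months. Deleted tumors had lost the Nkx2-1 gene. Positive tumors retained it. Per the labels' protocols, mice of the study received adenovirus or lentivirus by the trachea, and intraperitoneal tamoxifen at 56 or 112 µg per gram of body weight, which the labels do not tie to single samples. The alleles and the promoter that drive tumor growth or the deletion are not given in the sources used here. Of 31 samples, 9 were inputs, not analysed here, and 22 formed 11 groups of 2 libraries: Foxa1/2 (1 antibody against both) and 4 histone marks for each tumor type, and Nkx2-1 for positive tumors. The 2 files of every group were identical, so each group was 1 pooled list, no comparison has a replicate check, and no p-value was computed. Intervals are 95% and cover counting error only. The Foxa1/2 libraries came from 2 female mice for deleted tumors and from 2 male mice for positive tumors, so sex and tumor type cannot be told apart there. The Nkx2-1 libraries came from 2 males, and each histone group from 1 male and 1 female. Per the labels, the male positive-tumor histone libraries were paired with the same input as 1 of the Nkx2-1 libraries.

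The deposited H3K27ac islands held 31.2 M reads in deleted tumors and 45.7 M reads in positive tumors, and covered 223 Mb and 287 Mb of chromosomes 1 to 19, a ratio of 0.779. The same ratio of covered bases, deleted over positive, was 0.612 for H3K4me3, 0.915 for H3K4me1 and 0.988 for H3K27me3. Foxa1/2 peaks on these chromosomes numbered 14282 in deleted tumors and 22611 in positive tumors. There were 29265 Nkx2-1 peaks. The total depth of the libraries is unknown. Whole tumors were used, so fewer cells of a type and less of a mark per cell cannot be told apart.

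The domains had a median width of 25600 bp, with quartiles of 22200 and 32600 bp. Of them, 418 reached 30000 bp, 160 reached 40000 bp, 82 reached 50000 bp and 2 reached 100000 bp. The threshold cut through a continuous range: 31 islands were 20000 bp wide and 31 were 19800 bp wide. Read density in the positive-tumor list was also higher in the domains, with a median of 229 reads per kb (quartiles 184 and 284) against 151 reads per kb in the narrower islands (quartiles 113 and 204). Since reads and width come from the same calls, this is a description of how the domains were chosen. The domains lay on every autosome, with between 39 (chromosome 18) and 122 (chromosome 2). They tended to sit apart, with a median distance of 133800 bp to the nearest other domain, yet 465 (36.5%) had another within 50000 bp and 93 (7.29%) within 1000 bp.

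The 5 widest domains show what the class looks like, in 1-based mm9 coordinates. The widest, chr7:119365201-119481400, ran for 116200 bp with 316 reads per kb, and deleted-tumor H3K27ac covered 96.7% of it in 4 islands. It held 8 Foxa1/2 summits in deleted tumors and 15 in positive tumors, beside 21 Nkx2-1 summits, the highest number in any domain. H3K4me3 lay over 5.34% of its bases in deleted tumors and over 48.4% in positive tumors, so this domain stayed acetylated nearly end to end while most of its H3K4me3 was called in positive tumors alone. The second, chr14:26269601-26370000, spanned 100400 bp and was covered over 99.2%, with 7 deleted-tumor and 13 positive-tumor Foxa1/2 summits and 12 Nkx2-1 summits.

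The third and the fifth lay next to each other on chromosome 8, at chr8:129241001-129333800 (92800 bp) and chr8:129334201-129413000 (78800 bp). Deleted-tumor H3K27ac covered 100% and 99.5% of them. H3K4me3 was sparse in both, at 4.74% in deleted and 4.74% in positive tumors for the wider and at 1.27% in deleted and 14.2% in positive tumors for the other. Both held Foxa1/2 in both tumor types, with 4 summits in deleted and 9 in positive tumors in the wider, and 6 in deleted and 10 in positive tumors in the other. The fourth, chr15:66910401-66995200 (84800 bp), was covered over 93.6% but in 7 separate deleted-tumor islands, the widest of 46000 bp. No mm9 annotation was used here, and the domains are therefore given by position without gene names.

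**Figure D1:**
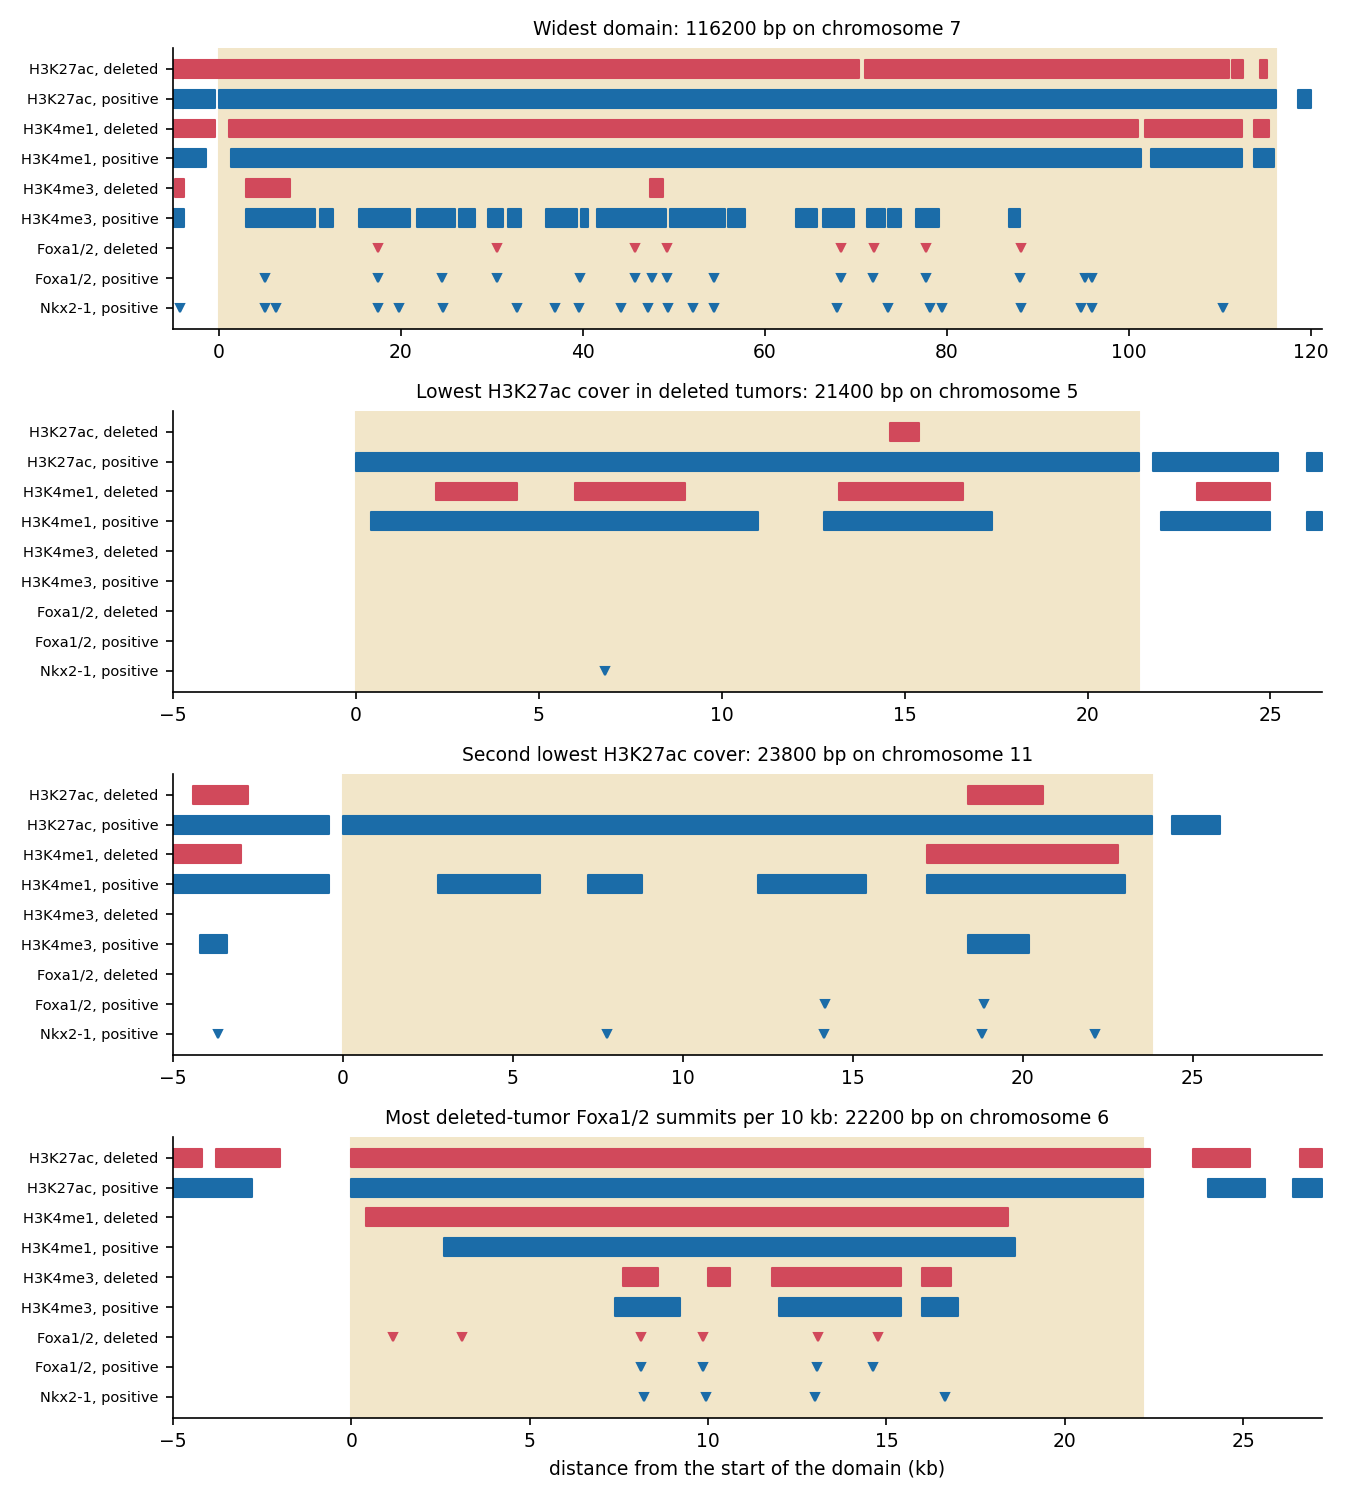
Islands (bars) and peak summits (triangles) of deleted tumors (red) and positive tumors (blue) in 4 broad domains, shaded, with 5 kb on either side; the x axis is the distance from the domain's start in kb. The widest domain is under H3K27ac in deleted tumors over 96.7% of its length, the domains with the lowest and second lowest cover over 3.74% and 9.24%, and the domain with the most deleted-tumor Foxa1/2 summits per 10 kb over 100%.

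H3K27ac was still called over most of nearly every domain in deleted tumors. The part of a domain under deleted-tumor H3K27ac islands had a median of 93.2% (interval 92.5% to 94.2%) and quartiles of 82.7% and 98.2%. In the narrower islands the median was 82.0% (81.4% to 82.8%), with quartiles of 58.8% and 95.8%. At least 90% of the length was covered in 774 domains, 60.7% (58.0% to 63.4%), against 5566 narrower islands, 37.1% (36.3% to 37.9%). Over all 71961 islands the share was 30.7%. The difference between domains and narrower islands was 23.6 percentage points (20.8 to 26.4) and had the same direction on 19 of 19 chromosomes. Among islands of the same H3K27ac read density, 184 to 284 reads per kb, a comparison added after the data had been seen, the difference was 13.1 points (8.94 to 17.0). In 4 density classes of 318 or 319 domains each, low to high and also added after seeing the data, it was 3.82 points (-1.34 to 9.30), 15.0 points (9.17 to 20.5), 9.17 points (3.26 to 14.8) and 9.80 points (4.31 to 14.8). In the least dense class the interval held 0.

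Cover of the whole length gave the other order. Deleted-tumor islands covered 100% of 176 domains, 13.8%, and of 2541 narrower islands, 16.9%, a difference of -3.13 points (-5.01 to -1.04). At the low end, 55 domains (4.31%) were covered over less than 50%, against 2803 narrower islands (18.7%) and 40.3% of all islands. No domain lacked deleted-tumor H3K27ac altogether: 0 of 1275, which allows a share of up to 0.235%, against 663 narrower islands (4.42%). Wider islands have more room to meet a deleted-tumor island, and in islands under 2000 bp the median cover was 0%.

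**Figure D2:**
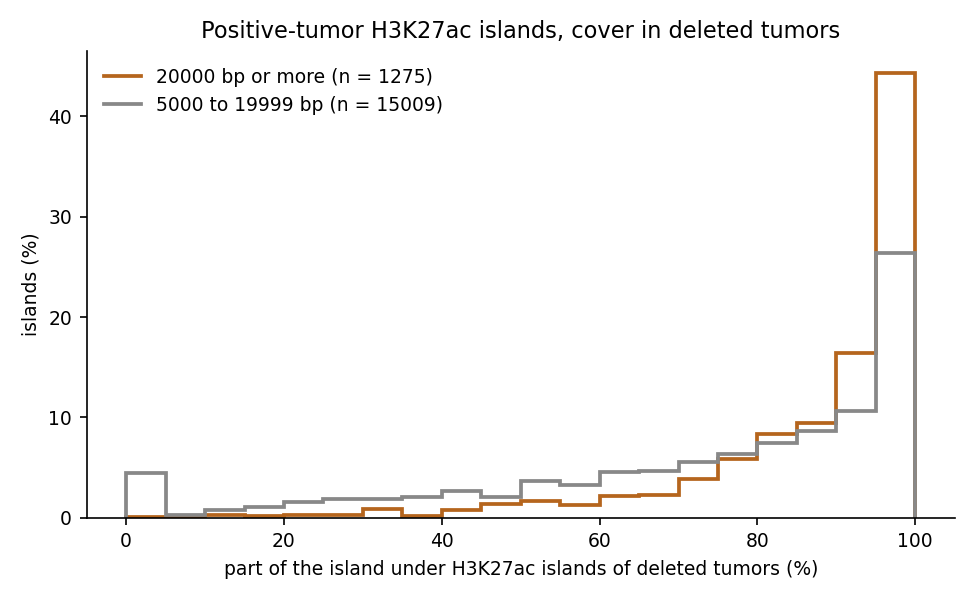
Share of islands (y axis, %) by the part of the island under deleted-tumor H3K27ac (x axis, %, in steps of 5), for broad domains (brown) and narrower islands (grey). The broad domains pile up near full cover, with a median of 93.2% against 82.0%, and lack the group at 0 that the narrower islands show. Wider islands have more room to meet a deleted-tumor island.

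Most domains met more than 1 deleted-tumor H3K27ac island. Each domain was chosen as a single island of the positive-tumor list, so the other list could only match, split or miss it. The reverse count, for broad islands of deleted tumors, is not given here, and these counts are no measure of change. In deleted tumors 395 domains (31.0%) met 1 H3K27ac island, 340 met 2, 232 met 3, 152 met 4, 82 met 5 and 74 met 6 or more. Together 4.39 Mb of domain was not covered, of which 47.5% lay at the edges and 52.5% in gaps between deleted-tumor islands. In the narrower islands 67.2% of 32.6 Mb uncovered lay at the edges and 19.1% in such gaps, the rest being islands with no cover. The 1999 gaps inside domains were short, with a median of 600 bp, and 70.0% were no longer than 1000 bp. The widest gap measured 12400 bp.

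About 50% of the domains met a deleted-tumor island that was itself broad. The widest deleted-tumor island that met a domain was itself at least 20000 bp wide for 632 domains (49.6%), 5000 to under 20000 bp wide for 600 (47.1%) and narrower than 5000 bp for 43 (3.37%), with a median of 19800 bp. For 242 domains it was wider than the domain. Conversely, deleted tumors had 868 islands of at least 20000 bp, of which 645 (74.3%) met a positive-tumor domain, and 84.1% of the 868 were covered over at least 90% in positive tumors. With as many of the widest deleted-tumor islands as there are domains (1275, at least 17000 bp wide, chosen after the data had been seen), 791 (62.0%) of those islands met a domain and 759 (59.5%) of the domains met one of them. Width in positive tumors chose the domains, so these widths, and the cover above, are a description and no measure of change.

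Cover fell off toward the edges. In the outer 10% of the width on either side, deleted-tumor H3K27ac covered 76.6% of domain bases, against 92.3% at the centre, 40% to 50% of the width from the nearer edge. In narrower islands it covered 55.4% of the outer parts and 83.5% of the centre. H3K4me3 followed the same profile in the domains, with 12.8% in deleted and 23.6% in positive tumors at the edges, and 22.5% in deleted and 44.1% in positive tumors at the centre. Nkx2-1 summits numbered 0.737 per 10 kb at the edges and 1.30 per 10 kb at the centre of the domains. The centre of narrower islands held slightly more, 1.39 per 10 kb, while their edges held 0.302 per 10 kb. On this scale Nkx2-1 summits were spread more evenly over the domains than over the narrower islands. The scale is percent of width, and the median widths were 25600 bp and 7400 bp. The same percent is therefore a longer distance in domains, and distances in bp were not compared.

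**Figure D3:**
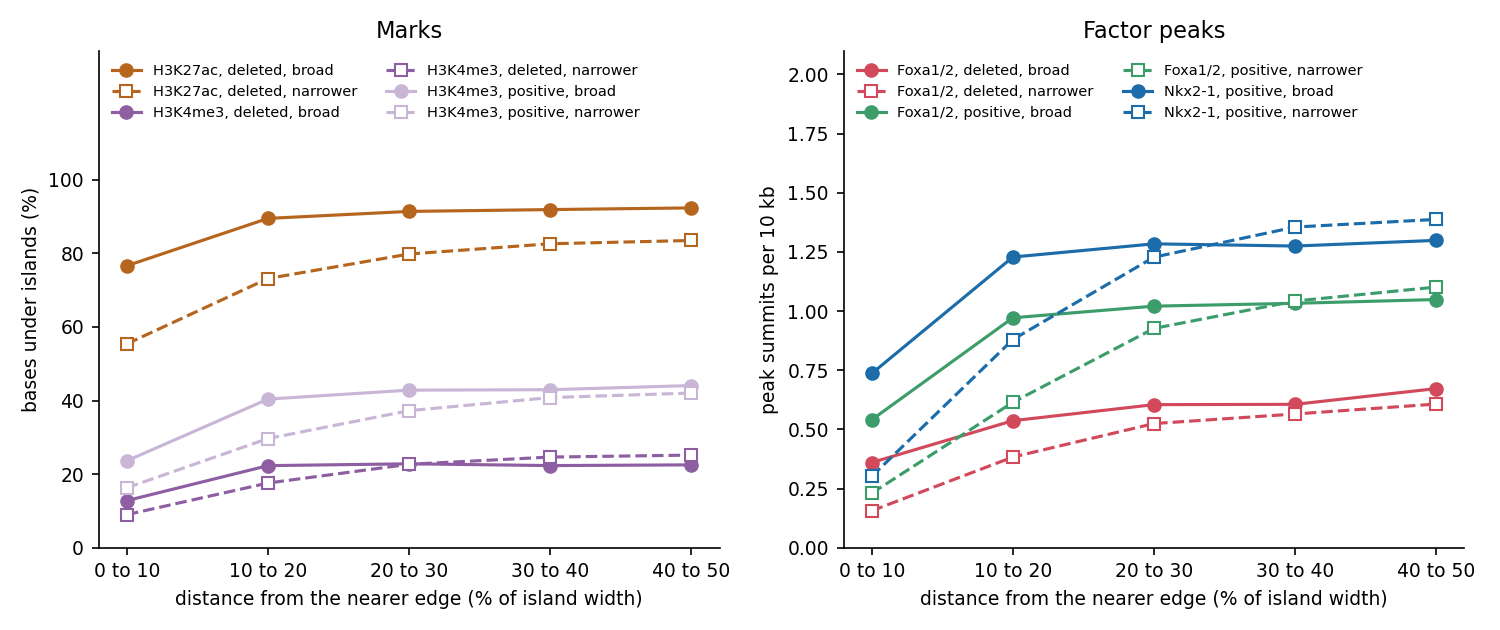
Bases under islands (left, %) and peak summits per 10 kb (right) by distance from the nearer edge (x axis, % of island width), for broad domains (filled, solid) and narrower islands (open, dashed). Nkx2-1 summits in broad domains level off at 1.23 to 1.30 per 10 kb from 10% of the width inward, while in narrower islands they climb to 1.39 per 10 kb at the centre.

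Nkx2-1 and Foxa1/2 peaks were common in the domains. At least 1 Nkx2-1 summit lay in 1156 domains, 90.7% (88.9% to 92.1%), against 58.7% of narrower islands and 25.6% of all islands. The domains held a median of 3 Nkx2-1 summits, 355 of them held 5 or more and 33 held 10 or more, and their 4380 summits were 15.0% of the whole list. Foxa1/2 in deleted tumors had a summit in 956 of the 1275 domains, with an interval of 72.5% to 77.3%, against 31.3% of narrower islands and 13.1% of all islands. Foxa1/2 in positive tumors had one in 1106 domains, 86.7%, against 48.8% of narrower islands and 20.0% of all islands. Wider islands have more room for a summit, so the comparison was made per length.

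Per length the domains held more summits of all 3 lists than the narrower islands. Deleted-tumor Foxa1/2 stood at 0.556 summits per 10 kb in domains against 0.448 in narrower islands, a ratio of 1.24 (1.18 to 1.31). Positive-tumor Foxa1/2 stood at 0.923 against 0.783, a ratio of 1.18 (1.13 to 1.22). Nkx2-1 stood at 1.16 against 1.03, a ratio of 1.13 (1.09 to 1.17). The ratio was above 1 on 19 of 19 chromosomes for deleted-tumor Foxa1/2, on 18 for positive-tumor Foxa1/2 and on 17 for Nkx2-1.

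At matched read density the direction of these ratios turned. Among islands of 184 to 284 reads per kb, the ratio of domains to narrower islands was 0.960 (0.889 to 1.03) for deleted-tumor Foxa1/2, 0.902 (0.850 to 0.956) for positive-tumor Foxa1/2 and 0.837 (0.796 to 0.881) for Nkx2-1. In the 4 density classes used above, the Nkx2-1 ratio lay between 0.811 and 0.903, and that of positive-tumor Foxa1/2 between 0.879 and 1.03. In the class of lowest density the domains held 0.769 Nkx2-1 summits per 10 kb against 0.851 in narrower islands of the same read density, and in the class of highest density 1.56 against 1.85. At equal read density the domains therefore held fewer Nkx2-1 summits per length than narrower islands. For deleted-tumor Foxa1/2 the interval held 1 in each class, with ratios between 0.933 and 1.01.

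**Figure D4:**
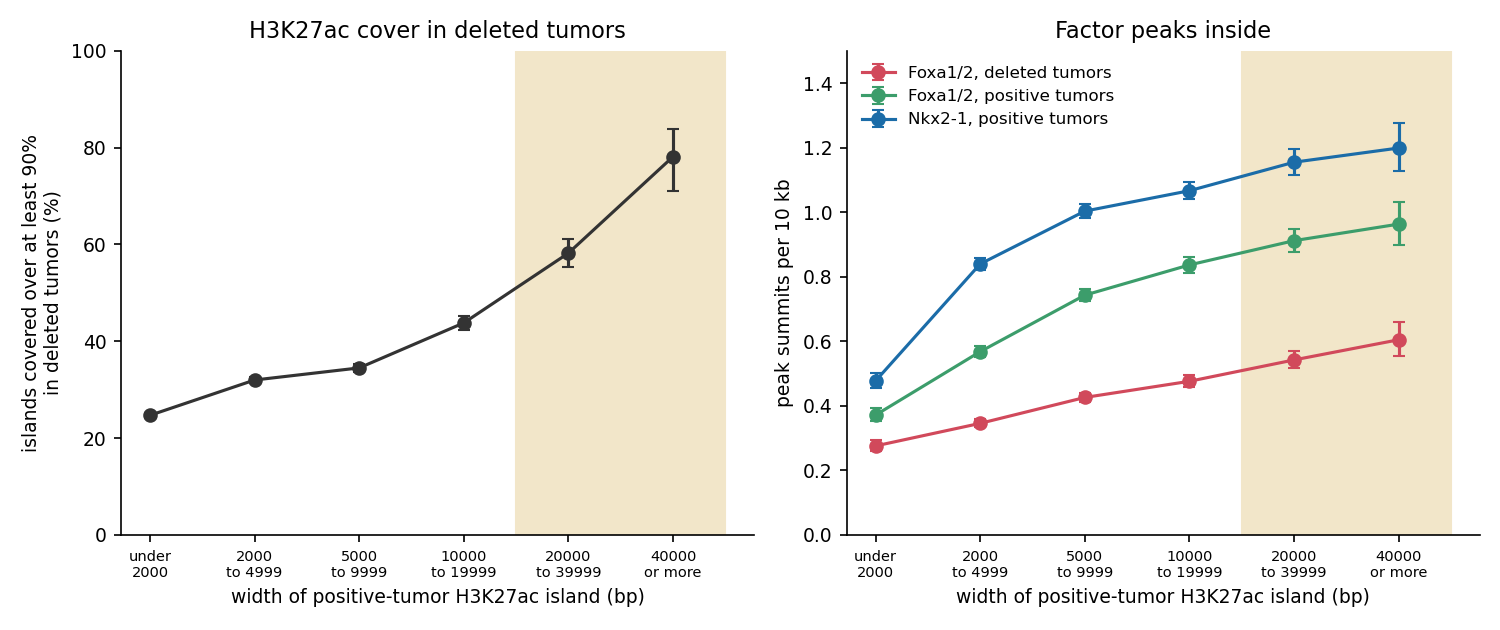
Share of positive-tumor H3K27ac islands covered over at least 90% in deleted tumors (left, %) and peak summits per 10 kb (right) by island width (x axis, bp); points are pooled values, bars 95% counting intervals, and the shading marks the broad domains. Both climb through every width class, from 24.7% of islands under 2000 bp to 78.1% of those of 40000 bp or more.

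Values climbed from each width class to the next. From islands under 2000 bp through 2000, 5000, 10000 and 20000 bp to islands of 40000 bp or more, the share covered over at least 90% was 24.7%, 32.0%, 34.5%, 43.8%, 58.2% and 78.1%. Nkx2-1 summits numbered 0.477, 0.839, 1.00, 1.07, 1.15 and 1.199 per 10 kb in the same order. Deleted-tumor Foxa1/2 numbered 0.276, 0.346, 0.426, 0.476, 0.542 and 0.605 per 10 kb. Median read density climbed as well, at 73.3, 93.3, 138, 181, 225 and 263 reads per kb. The 3 islands just inside the threshold, all of 20000 bp, were covered over 91%, 83% and 64%, and the 3 just outside, all of 19800 bp, over 100%, 73.7% and 34.3%.

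The 5 domains richest in Nkx2-1 per 10 kb were 20200 to 25400 bp wide. A single summit adds more per 10 kb to a short domain, so this ranking favours domains near the width threshold. Pooled by width, Nkx2-1 numbered 1.15 per 10 kb in domains under 40000 bp and 1.199 in those of 40000 bp or more. At chr11:54822801-54848200 (25400 bp) lay 10 Nkx2-1 summits, 3.94 per 10 kb, with 2 Foxa1/2 summits in deleted tumors and 4 in positive tumors. At chr12:86100001-86121400 (21400 bp) lay 8 Nkx2-1 summits, with 1 Foxa1/2 summit in deleted and 7 in positive tumors, and 74.8% of the domain was covered. The other 3 of the 5 richest held 7 or 8 Nkx2-1 summits and were covered over 91.1% to 100%. One of them, chr7:125838601-125860200, was also among the 5 richest in deleted-tumor Foxa1/2, with 5 summits in deleted tumors and 6 in positive tumors. The number of Nkx2-1 summits in a domain went with its cover: 36.97% of the 119 domains with no summit were covered over at least 90%, 54.2% of the 382 with 1 to 2, 60.9% of the 419 with 3 to 4 and 75.5% of the 355 with 5 or more. Median read density in these 4 classes was 173, 202, 233 and 282 reads per kb, and the median width was 33200 bp in the last class and 23700 to 24800 bp in the others.

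Under 50% of the positive-tumor Foxa1/2 peaks inside domains were shared by both tumor types. The deleted-tumor Foxa1/2 list was shorter, with 14282 peaks against 22611, which limits how many could be shared. Sex also went with tumor type in these libraries. Of 3472 positive-tumor Foxa1/2 peaks with their summit in a domain, 1632 overlapped a deleted-tumor peak, 47.0% (45.3% to 48.7%). In narrower islands 44.5% (43.5% to 45.5%) did, and 42.1% of the whole autosomal list. Of 2092 deleted-tumor Foxa1/2 peaks in domains, 434 had no positive-tumor peak, 20.7% (19.1% to 22.5%), against 21.5% (20.5% to 22.6%) in narrower islands and 32.9% of the whole list. Nkx2-1 overlapped 74.6% of the positive-tumor Foxa1/2 peaks in domains, 70.6% of those in narrower islands and 61.6% of the whole list. Within domains it overlapped 78.0% (76.0% to 79.8%) of the 1840 Foxa1/2 peaks without a deleted-tumor counterpart. Of the shared ones it overlapped 70.7% (68.5% to 72.9%). These 2 shares were 75.7% and 64.2% in narrower islands, and 66.5% and 54.9% over the whole list. The order was thus not particular to domains. Summits per 10 kb of Nkx2-1 and of positive-tumor Foxa1/2 had a Spearman rho of 0.616 over the 1275 domains, which share their tumors and the H3K27ac list.

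Where H3K27ac was called over less of a domain in deleted tumors, deleted-tumor Foxa1/2 was also sparser. In domains covered over less than 50%, 50 to 75%, 75 to 90%, 90 to under 100% and 100%, deleted-tumor Foxa1/2 numbered 0.164, 0.286, 0.402, 0.640 and 0.810 summits per 10 kb. Positive-tumor Foxa1/2 varied far less, at 0.926, 0.735, 0.879, 0.943 and 1.06 per 10 kb. Nkx2-1 numbered 1.104 (0.937 to 1.29), 0.938, 0.997, 1.21 and 1.45 (1.35 to 1.56) per 10 kb. The share of positive-tumor Foxa1/2 peaks shared with deleted tumors went from 17.7% (12.1% to 25.2%, 23 of 130 peaks) in the least covered class through 36.4%, 37.5% and 51.2% to 58.7% (54.5% to 62.7%) in the wholly covered class. Over all domains, cover had a rho of 0.404 with deleted-tumor Foxa1/2 summits per 10 kb and of 0.134 with positive-tumor ones. It had a rho of 0.378 with the read density in positive tumors, which was 179, 183, 209, 241 and 268 reads per kb at the median of the 5 classes. The narrower islands showed the same order, with 14.9% of Foxa1/2 peaks shared in the least covered class and 68.7% in the wholly covered class, so the pattern was not particular to broad domains.

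Counted by domain, 901 domains held Foxa1/2 in both tumor types, and 69.1% (66.1% to 72.1%) of these were covered over at least 90%. Foxa1/2 was called in positive tumors and not in deleted tumors in 205 domains, of which 35.1% (28.9% to 41.9%) were covered that far. In 55 domains it was called in deleted tumors alone, and 67.3% (54.1% to 78.2%) of these were covered. The 114 domains with Foxa1/2 in neither had 36.8% (28.6% to 46.0%). Their median read densities were 246, 204, 185 and 180 reads per kb in the same order.

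**Figure D5:**
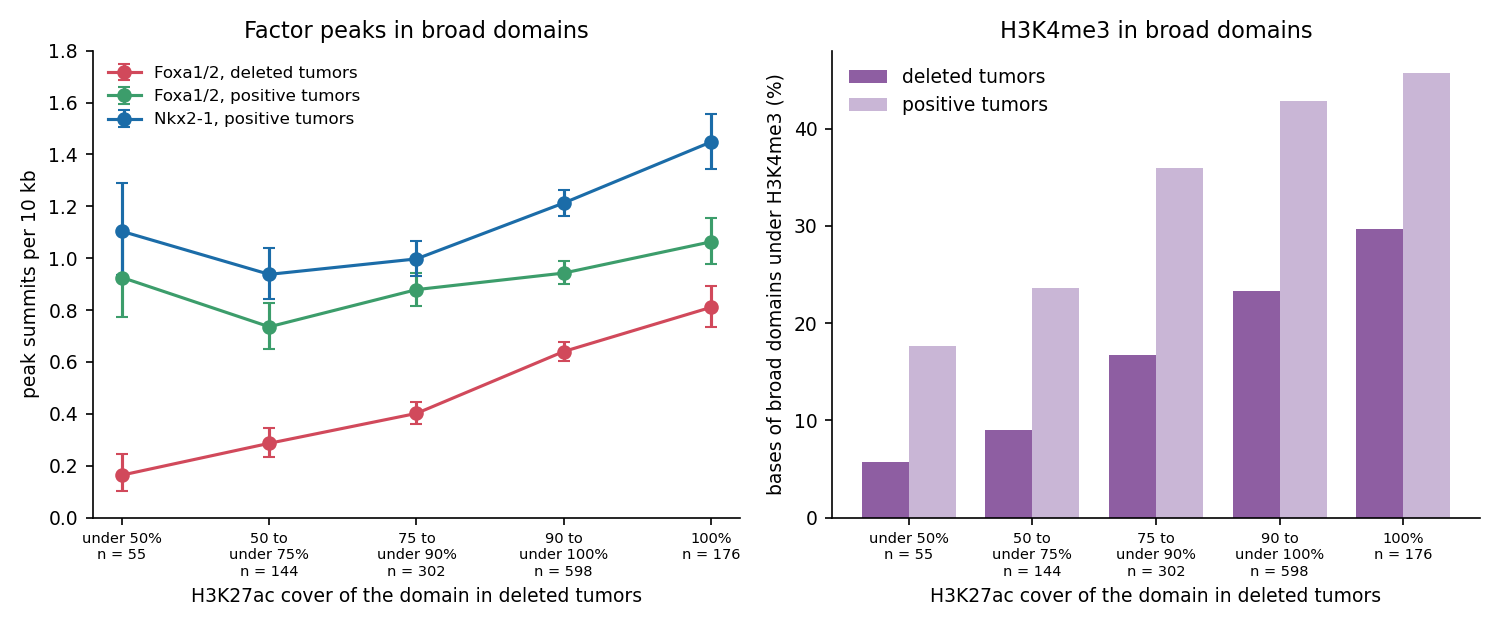
Peak summits per 10 kb (left, with 95% counting intervals) and bases under H3K4me3 (right, %) in broad domains by their H3K27ac cover in deleted tumors (x axis, with the number of domains). Deleted-tumor Foxa1/2 (red) climbs from 0.164 to 0.810 per 10 kb, while positive-tumor Foxa1/2 (green) and Nkx2-1 (blue) are not lowest where cover is lowest.

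The 5 least covered domains held no deleted-tumor Foxa1/2 summit and no deleted-tumor H3K4me3. At chr5:89873201-89894600 (21400 bp), deleted-tumor H3K27ac covered 3.74% in an island of 800 bp. This domain held 1 Nkx2-1 summit, no Foxa1/2 summit and no H3K4me3 in either tumor type, and H3K4me1 lay over 40.2% of its bases in deleted and 71.0% in positive tumors. At chr11:107570801-107594600 (23800 bp) the cover was 9.24%, with 2 positive-tumor Foxa1/2 summits and 4 Nkx2-1 summits. At chr1:94330601-94351200 (20600 bp) it was 11.7%, with 4 positive-tumor Foxa1/2 summits and 3 Nkx2-1 summits. At chr9:97562401-97588800 and chr12:93182601-93209600 it was 12.9% and 14.1%, with 5 and 4 Nkx2-1 summits. Of the 5, 4 had between 0.758 and 1.94 positive-tumor Foxa1/2 summits per 10 kb, and all 5 had 139 to 194 reads per kb, below the domains' median of 229.

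The domains with most deleted-tumor Foxa1/2 stood at the other end. At chr6:99109001-99131200 (22200 bp) there were 6 deleted-tumor and 4 positive-tumor Foxa1/2 summits, 100% cover, and H3K4me3 over 27.03% in deleted and 27.9% in positive tumors. At chr13:34375601-34396600 (21000 bp) there were 5 deleted-tumor and 6 positive-tumor Foxa1/2 summits, 99.05% cover, and H3K4me3 over 0% in deleted and 59.0% in positive tumors. These 2 domains differ in H3K4me3 while H3K27ac spans both. The other 3 of these 5 held 5 deleted-tumor summits each and were covered over 96.3% to 100%.

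Pooled over domains, factor peaks lay mostly in the parts that were also under H3K27ac in deleted tumors. Covered and uncovered lengths were not compared domain by domain, so differences between domains enter these ratios. In the 1099 domains not wholly covered, deleted-tumor Foxa1/2 numbered 0.0205 summits per 10 kb over the 4.39 Mb without deleted-tumor H3K27ac and 0.593 over the 28.1 Mb with it, a ratio of 0.0345 (0.0158 to 0.0657). Positive-tumor Foxa1/2 numbered 0.155 and 1.02, a ratio of 0.152 (0.118 to 0.194). Nkx2-1 numbered 0.185 and 1.27, a ratio of 0.146 (0.115 to 0.182). In positive tumors H3K4me3 covered 4.72% of the uncovered and 42.8% of the covered part. The uncovered parts were thus poor in peaks in positive tumors too. In narrower islands the ratios were higher, 0.0760 for deleted-tumor Foxa1/2, 0.326 for positive-tumor Foxa1/2 and 0.322 for Nkx2-1. Their 32.6 Mb without deleted-tumor H3K27ac included 4.46 Mb of islands with no cover at all, a kind absent among domains. The ratios of the 2 classes are therefore not of like parts.

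H3K4me3 was called in nearly all domains and over less of them in deleted tumors. At least 1 bp was under H3K4me3 in 1118 domains in deleted tumors, 87.7% (85.8% to 89.4%), and in 1241 in positive tumors, 97.3% (96.3% to 98.1%). In narrower islands these shares were 54.2% in deleted and 73.1% in positive tumors, and over all islands 31.7% and 42.1%. Wider islands have more room for 1 bp of H3K4me3, so the share of bases is given below. H3K4me3 was called in positive tumors and not in deleted tumors in 124 domains, 9.73% (8.22% to 11.5%). This was so in 11.1% of all islands and 19.5% of narrower islands. These shares also count islands without positive-tumor H3K4me3. Among islands with it, 124 of 1241 domains had none in deleted tumors, against 2932 of 10965 narrower islands and 7984 of 30299 of all islands. In 1 domain H3K4me3 was called in deleted tumors alone. H3K4me3 covered 20.6% of domain bases in deleted tumors and 38.8% in positive tumors, a ratio of 0.530. In narrower islands it covered 19.8% in deleted and 33.2% in positive tumors, a ratio of 0.597. H3K4me3 islands numbered 0.762 per 10 kb in deleted and 1.03 in positive tumors in domains, against 0.793 and 1.12 in narrower islands. Over the whole H3K4me3 lists the ratio of covered bases was 0.612.

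Domain by domain, H3K4me3 cover was lower in deleted tumors in 1201 domains (94.2%), equal in 48 and higher in 26. It was lower in 66.9% of narrower islands and in 33.1% of all islands, many of which hold no H3K4me3 in either tumor type. The median of the difference, deleted minus positive, was -15.7 percentage points (-16.7 to -14.6), and the cover of domain bases was lower in deleted tumors on 19 of 19 chromosomes. The widest H3K4me3 island in a domain had a median width of 3200 bp in deleted tumors and 5200 bp in positive tumors. H3K4me3 spanned at least 50% of 98 domains in deleted tumors and of 405 in positive tumors. When the longer positive-tumor H3K4me3 list was cut by read count to the covered length of the deleted-tumor list, an alternative added after the data had been seen, the median difference was 0 points and 62.9% of domains held positive-tumor H3K4me3. This cut kept the positive-tumor islands with most reads and left the deleted-tumor list whole, so it does not compare like parts of the lists. With the upper 50% of the islands of both lists, the median difference was -11.9 points (-13.1 to -10.8). The part of list length in the lower H3K4me3 cover of deleted tumors was not tested.

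H3K4me3 also followed H3K27ac cover in both tumor types. In the 5 cover classes, low to high, it covered 5.70%, 9.03%, 16.7%, 23.3% and 29.6% of bases in deleted tumors, and 17.6%, 23.6%, 35.9%, 42.8% and 45.7% in positive tumors. The 34 domains without H3K4me3 in positive tumors had a median H3K27ac cover of 77.6%, against 93.5% in the other 1241. Per 10 kb they held 0.229 deleted-tumor Foxa1/2, 0.447 positive-tumor Foxa1/2 and 0.543 Nkx2-1 summits, against 0.564, 0.934 and 1.18 in the other domains. The 34 domains were thus also poorer in the factors measured, with 19, 37 and 45 summits in all, in the same order. Their read density was not compared, and its part in this was not tested.

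H3K4me1, the enhancer mark, spanned the domains in both tumor types, over 84.6% of bases in deleted tumors and 87.7% in positive tumors. In narrower islands it covered 76.4% in deleted and 81.1% in positive tumors. H3K4me1 islands were called with a gap of 600 bp, against 200 bp for H3K27ac and H3K4me3. In the domains covered over less than 50%, H3K4me1 covered 47.1% in deleted and 69.4% in positive tumors, and in wholly covered domains 95.8% in deleted and 91.8% in positive tumors. H3K27me3 was rare. It met 95 domains (7.45%) in deleted tumors and 71 (5.57%) in positive tumors, against 13.7% and 10.6% of all islands in deleted and in positive tumors. In positive tumors it covered at least 50% of 31 domains, 2.43% (1.72% to 3.43%), against 5.92% of narrower islands and 9.10% of all islands.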

How the data were processed

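Deposited values were used as they stand. Per the submitters' processing notes, Bowtie, MACS 1.4.2, SICER 1.1 and build mm9 were used, with no role stated for each. File names give a peak p of 1e-06, and for islands an FDR of 0.01, windows of 200 bp and a gap of 200 bp for H3K27ac and H3K4me3 and of 600 bp for the other marks. Each deposited peak carries the authors' score (at least 60) and a summit, and each deposited island the authors' read count, not scaled for depth. Counts gave read density and ranks within a list, and scores ranks within a list.

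Domains and narrower islands were taken by width. Cover is the percent of an island's bases under another list. A peak belonged to an island when its summit lay inside. Foxa1/2 peaks were shared when they overlapped by at least 1 bp. Shares have Wilson intervals, differences of shares Newcombe intervals, densities exact Poisson intervals, density ratios Clopper-Pearson intervals and medians order-statistic intervals. A limit for a count of 0 is 3 counts. Regions were named by rule: the 5 widest, the 5 least covered, the 5 richest per 10 kb in Nkx2-1 and in deleted-tumor Foxa1/2, and 3 on either side of the width threshold. Domains, lists and rules were chosen with earlier results of these data known. Planned gene lists and marker checks need an annotation of build mm9 and were not analysed here, and no sequence was read, for the same reason. Interval code was tested on simulated lists. Python 3.11.15, numpy 2.4.6, scipy 1.17.1 and matplotlib 3.10.9 were used.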

Additional observations from a re-analysis of the deposited data

Results flagged for a closer look

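Outside chromosomes 1 to 19, which the width rule did not cover, the positive-tumor list held 15 H3K27ac islands of at least 20000 bp, all on chromosome X. This was a signal in data that no comparison used. Their median cover by deleted-tumor H3K27ac was 98.1%, the lowest was 77.8%, and 10 of the 15 were covered over at least 90%. Each H3K27ac group pooled 1 male and 1 female, and the part of sex in this cover was not tested.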

How the results depend on the processing

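Of 90 alternative values, 35 stayed within the counting interval of the reported one, 51 moved outside it and 4 turned round. The share of domains covered over at least 90% (60.7%) was 53.5% for domains from 15000 bp, 65.3% from 25000 bp, 42.3% for islands joined across up to 1000 bp, 80.0% over the central 5000 bp, 54.0% with the upper 50% of deleted-tumor islands, 95.7% for cover of at least 50%, 13.8% for cover of 100% and 63.9% at matched read density. The difference to narrower islands (23.6 points) was 17.2, 28.2 and 10.9 points for the first 3 of these, 20.1 points with the upper 50%, 14.4 points for cover of at least 50%, -3.13 points for cover of 100%, 13.1 points at matched read density and 16.9 points against islands of 10000 to under 20000 bp. Density ratios moved to 1.17 (deleted-tumor Foxa1/2) and 1.104 (positive-tumor Foxa1/2) against islands of 10000 to under 20000 bp, and to 1.17, 1.11 and 1.06 (Nkx2-1) with joined islands. With the upper 50% of peaks by score the ratio was 1.24 for positive-tumor Foxa1/2 and 1.202 for Nkx2-1, with equal numbers of peaks 1.21 for Nkx2-1, and over the central 5000 bp 1.09 for Nkx2-1. At matched read density all 3 turned below 1, to 0.960, 0.902 and 0.837. The median H3K4me3 difference (-15.7 points) was -14.4 from 15000 bp, -17.3 from 25000 bp, -12.2 with joined islands, -12.0 over the central 5000 bp, -11.9 with the upper 50% of H3K4me3 islands, -16.8 at matched read density and 0 with the H3K4me3 list cut to equal length. Matched read density and equal length were chosen after seeing the data. The causes were not tested. No paired analysis was possible because both files of a group hold the same values, and leaving out a library was not run for the same reason. The depth of the libraries is unknown, which limits every comparison of called lengths.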

Other observations

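A small group of domains lay under both the H3K27ac and the H3K27me3 list of positive tumors. The lists pool whole tumors of 2 mice, so both marks on the same chromatin and marks of different cells cannot be told apart. Over the 31 domains (2.43%, against 5.92% of narrower islands) with H3K27me3 on at least 50% of their length in positive tumors, it spanned 81.9% of bases in deleted and 76.3% in positive tumors. They were poor in factor peaks, with 9 deleted-tumor Foxa1/2, 13 positive-tumor Foxa1/2 and 17 Nkx2-1 summits in all, which is 0.116, 0.167 and 0.219 per 10 kb against 0.566, 0.939 and 1.18 per 10 kb in the other 1244 domains. A single domain, chr8:94871601-94893200, held 5 of the 9, 3 of the 13 and 5 of the 17 summits, and without it, a setting chosen after seeing the data, the 30 others held 0.0529, 0.132 and 0.159 per 10 kb. H3K4me3 covered 32.6% of their bases in deleted and 46.6% in positive tumors, against 20.3% in deleted and 38.6% in positive tumors in the other domains. Deleted-tumor H3K27ac covered at least 90% of 11 of the 31 (35.5%, interval 21.1% to 53.1%), against 61.3% of the others. The 31 had a median of 177 reads per kb, against 231 in the others. Among all domains in the lowest of the 4 density classes, 35.4% were covered that far. The part of read density in the lower cover of the 31 was not tested.

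Deleted tumors had 223 broad islands of their own that met no broad island of positive tumors. Positive-tumor H3K27ac still covered them to a median of 89.6%, with a widest positive-tumor island of 14400 bp at the median. Deleted-tumor Foxa1/2 stood at 0.763 summits per 10 kb in them, against 0.744 in the 645 that met a positive-tumor domain. Of these Foxa1/2 peaks, 32.4% (28.1% to 37.0%) in the 223 had no positive-tumor peak, against 23.8% (21.7% to 26.1%) in the 645. Over the whole deleted-tumor Foxa1/2 list this share was 32.9%, close to that of the 223. Nkx2-1 in positive tumors stood at 0.997 summits per 10 kb in the 223, against 1.30 in the 645.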
